A study of Rattus norvegicus with 24 samples.

Results

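The 7 adrenergic receptor genes named on the array as Adra1a, Adra1b, Adra1d, Adra2a, Adra2b, Adra2c and Adrb1 were measured in the left dorsal striatum of rats given MDPV. This drug, methylenedioxypyrovalerone, is a cathinone stimulant and an inhibitor of the dopamine and noradrenaline transporters. They were found by gene name and had 10 probes, out of 45598 non-control probes with 36174 gene names. In total 8 of the 10 probes, and all 7 genes, passed the filter on dim probes. Male Long Evans rats aged 80 to 90 days received 1 intraperitoneal injection on each of 5 days. The chronic group had MDPV at 1 mg/kg in all 5 injections, the acute group had saline in the first 4 and MDPV at 1 mg/kg in the last 1, and the saline group had saline in all 5. Tissue was collected 24 h after the final injection, so the acute group shows the tissue 1 day after its only dose. Each group had 8 arrays. In each group 4 of the arrays had titles of their own and 4 carried a letter shared by a pair. Arrays of a shared letter were averaged, because the series design gives 6 per group, and the resulting 18 samples are called units.

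Adrenergic receptors are the membrane receptors for noradrenaline and adrenaline. The alpha-1 class (Adra1a, Adra1b, Adra1d) couples mainly to Gq and raises intracellular calcium through phospholipase C. The alpha-2 class (Adra2a, Adra2b, Adra2c) couples to Gi/o and lowers cyclic AMP, and on noradrenergic terminals it holds back transmitter release. Adrb1 couples to Gs and raises cyclic AMP. The dorsal striatum receives little noradrenergic input compared with the cortex, and Adra2c is the alpha-2 receptor best known from its projection neurons. The arrays address whether a cathinone that acts on noradrenaline uptake shifts the transcripts of these receptors after 1 dose or after repeated doses.

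The sequences of 4 probes are shown, because the readings of Adra1a depend on which of its probes is read and those of Adra2c and Adrb1 each rest on 1 probe. The sequences are those the files print, each 60 bases, and coordinates are those of the files' build rn4. The pair of Adra1a probes lies on the plus strand at chr15:46262923-46262982 and chr15:46263114-46263173, separated by 131 bases. The Adra2c probe lies on the minus strand at chr14:81108144-81108203 and the Adrb1 probe on the plus strand at chr1:263026996-263027055. Capitals mark a stop codon that closes an otherwise open reading frame at the probe's end, as at the end of a coding sequence.
Adra1a, probe A_44_P165594: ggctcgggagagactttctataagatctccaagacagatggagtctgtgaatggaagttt
Adra1a, probe A_64_P053790: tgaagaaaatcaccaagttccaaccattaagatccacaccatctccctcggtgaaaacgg
Adra2c, probe A_64_P054441: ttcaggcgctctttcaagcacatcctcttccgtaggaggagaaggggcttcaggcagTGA
Adrb1, probe A_64_P130105: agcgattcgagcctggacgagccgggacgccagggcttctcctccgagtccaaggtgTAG
The third Adra1a probe, A_44_P1113304, lies downstream at chr15:46268933-46268992. Adra1b is read at chr10:28889094-28889153 and Adra1d at chr3:119280059-119280118, both on the minus strand. Adra2b has a pair of plus-strand probes, A_64_P138008 at chr3:114869275-114869334 and A_44_P383088 at chr3:114870937-114870996. The file gives the Adra2a probe no genome position.

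Slides 1 and 2 each held 3 chronic, 2 acute and 3 saline arrays, and slide 3 held 2 chronic, 4 acute and 2 saline arrays. Each array had 58717 non-control spots, of which 50.7% to 71.3% exceeded background clearly by the scanner's flag and 0 were saturated, and the number of arrays limits the precision of every value. Markers of striatal projection neurons were bright on all arrays, with Ppp1r1b between 3.10 and 5.72 and Drd2 between 1.90 and 3.88 on the log2 scale of signal over the array's 75th percentile. Saline replicate 4 stood apart: it had the lowest Ppp1r1b, Drd1, Drd2, Adora2a, Penk and Tac1 of the 24 arrays and the highest Avp, a hypothalamic peptide, and Slc17a6, a vesicular glutamate transporter of thalamic and hypothalamic neurons. Other arrays differed too: Ttr, a choroid plexus marker, ran from -5.62 in chronic replicate 3 to 6.28 in saline replicate 3. Receptor differences and spreads that turned sign or moved by over 1.5 times without saline replicate 4 are given with and without it. Relations that lost or gained their call without it are also given both ways, but not every relation that moved. The paired arrays of a letter are not shown to come from 1 rat. Over all genes tested, limma estimated a consensus correlation of -0.37 between arrays of a letter. Paired arrays were thus no more alike in that fit than other arrays of their group, and every unit value rests on this averaging. The arrays of each pair lay on different slides and the fit had no slide term. Likeness within a pair can therefore not be told apart from slide. The Adra1d values of the 6 pairs differed by 0.0043 to 2.91 on the log2 scale, with a median of 1.63, and the Adra2a values by 0.077 to 1.12, with a median of 0.32. As p-values rest on the spread between units, and no label ties a unit to 1 animal, part of that spread may be technical.

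Some receptor genes were read on every array, and Adra1a and Adrb1 were not. The probes of Adra1b, Adra1d, Adra2a, Adra2c and the Adra2b probe A_64_P138008 were well above background on 24 of 24 arrays. The best Adra1a probe, A_64_P053790, was well above background on 20 of 24 arrays, being 7 of 8 chronic, 6 of 8 acute and 7 of 8 saline arrays. Its neighbour A_44_P165594, 131 bases away on the same transcript, reached that mark on only 4 arrays, 0 of them chronic, 3 acute and 1 saline. The chronic limit for that probe lay above the acute and the saline mean, so no fold is given for it. The downstream Adra1a probe A_44_P1113304 was well above background on 6 arrays, 3 chronic, 1 acute and 2 saline. Adrb1 was well above background on 19 arrays, 7 chronic, 6 acute and 6 saline, so its lowest values lie near background. The other Adra2b probe, A_44_P383088, was well above background on 17 arrays, 7 chronic, 6 acute and 4 saline.

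**Figure D1:**
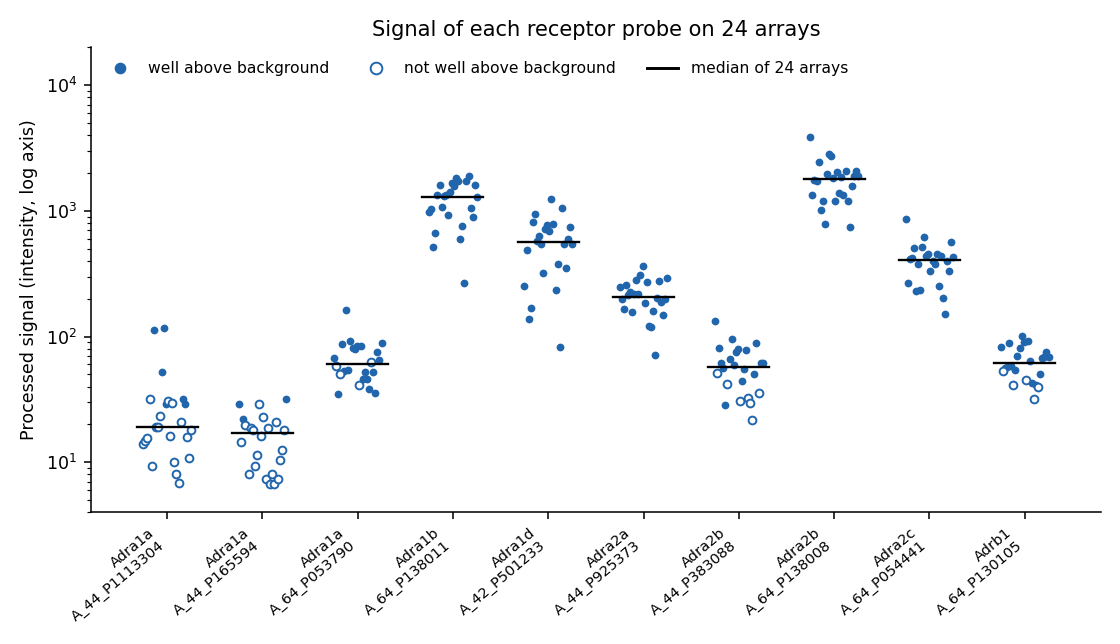
Processed signal (intensity, log axis) of the 10 receptor probes on 24 arrays, with filled circles for spots well above background, open circles for the others and a line at the median. The probes of Adra1b, Adra1d, Adra2a, Adra2c and A_64_P138008 of Adra2b are filled throughout, while A_44_P165594 and A_44_P1113304 of Adra1a are filled on 4 and 6 arrays.

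Signal depends on the probe as well as on the transcript, so the brightness of these probes gives no order of transcript amounts between receptors. As a description of each probe, A_64_P138008 of Adra2b was brighter than 86.9% of the array's non-control probes (median of 24 arrays, 80.1% to 91.3%). The Adra1b probe was brighter than 83.6% of probes (72.9% to 88.8%) and the Adra1d probe than 77.1% (60.5% to 84.8%). The medians were 72.3% for the Adra2c probe, 66.0% for the Adra2a probe, 52.8% for A_64_P053790 of Adra1a, 52.5% for the Adrb1 probe and 51.1% for A_44_P383088 of Adra2b. The pair of Adra2b probes gave unlike readings, with median processed signals of 1805 for A_64_P138008 (55% GC) and 57.4 for A_44_P383088 (40% GC), and their values varied almost independently over the 18 units after removal of group means (Pearson r = 0.12, a description over units that share arrays). The 3 Adra1a probes also tracked each other weakly, with r between -0.031 and 0.31.

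No difference between groups passed the test for any of the 7 receptor genes. In the values that follow, a level is the log2 processed signal minus the array's 75th percentile, a difference is the first group minus the second on that scale, and ± is the SD over 6 units per group. The alpha-1 class is described first.

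Adra1a, read by A_64_P053790, had a lowest, median and highest level of -5.53, -5.11 and -4.91 in chronic units, -5.79, -5.16 and -3.78 in acute units, and -5.82, -5.13 and -4.60 in saline units. The acute unit at -3.78, replicate 7, was the highest of all, and the groups overlapped. The means of -5.15 ± 0.21 in chronic, -5.04 ± 0.72 in acute and -5.13 ± 0.43 in saline units differed by -0.018 for chronic minus saline (SE 0.27), 0.090 for acute minus saline (SE 0.27) and -0.11 for chronic minus acute (SE 0.27). Leaving out saline replicate 4 gave -0.049 for chronic minus saline and 0.060 for acute minus saline (SE 0.29 each).

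Adra1b had levels of -1.26, -0.85 and -0.30 in chronic units, -1.90, -1.11 and -0.70 in acute units, and -1.98, -0.86 and -0.0048 in saline units (lowest, median, highest). Both extremes of the 18 units were saline, the unit of replicates 2 and 5 at the low end and replicate 3 at the high end, and the acute units lay inside the saline range. The means were -0.83 ± 0.36 in chronic, -1.17 ± 0.41 in acute and -0.81 ± 0.72 in saline units. The differences were -0.021 for chronic minus saline (SE 0.28), -0.35 for acute minus saline (SE 0.28, 95% interval -0.95 to 0.24, adjusted p = 1.00 in limma) and 0.33 for chronic minus acute (SE 0.28). With saline replicate 4 left out, chronic minus saline was 0.12 (SE 0.28) and acute minus saline -0.21 (SE 0.28).

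Adra1d was the most variable of the 7 genes. Its levels were -2.53, -1.97 and -1.42 in chronic units, -3.80, -2.25 and -1.62 in acute units, and -3.61, -1.85 and -0.73 in saline units. A single acute unit, replicate 3, and a single saline unit, replicates 2 and 5, lay below -3, and the remaining units of the 3 groups overlapped. The means were -1.97 ± 0.39 in chronic, -2.42 ± 0.81 in acute and -1.97 ± 0.94 in saline units. Acute minus saline was -0.45 (SE 0.40, 95% interval -1.30 to 0.40) and chronic minus acute was 0.45 (SE 0.40, -0.40 to 1.30), the largest differences in size among the receptor genes. Chronic minus saline was 0.00031 (SE 0.40), and without saline replicate 4 it was 0.010 (SE 0.44). The differences moved with the slide: on slide 2 alone chronic minus acute was 2.50 and acute minus saline was -1.68, and on slide 3 alone they were -0.73 and 0.36, over 8 arrays a slide with no test. With slide as a block over 24 arrays, chronic minus acute was 0.63 (SE 0.48) and acute minus saline -0.44 (SE 0.48).

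Among the alpha-2 class, Adra2a, the main autoreceptor of noradrenergic neurons, had levels of -4.11, -3.45 and -2.79 in chronic units, -3.82, -3.55 and -3.09 in acute units, and -4.17, -3.43 and -2.89 in saline units. The groups overlapped, and the acute units lay inside the saline range. The means were -3.43 ± 0.47 in chronic, -3.47 ± 0.25 in acute and -3.46 ± 0.47 in saline units, and the 3 differences were 0.031, -0.016 and 0.047 for chronic minus saline, acute minus saline and chronic minus acute (SE 0.22 each). When saline replicate 4 was left out, chronic minus saline was 0.14 and acute minus saline 0.097 (SE 0.22 each).

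Adra2b, read by A_64_P138008, had levels of -0.69, -0.36 and 0.081 in chronic units, -0.90, -0.49 and -0.026 in acute units, and -1.47, -0.33 and 0.035 in saline units. Saline replicate 4 was the lowest unit, and the ranges of the 3 groups overlapped. The means were -0.36 ± 0.28 in chronic, -0.47 ± 0.36 in acute and -0.47 ± 0.52 in saline units. Chronic minus saline was 0.11 (SE 0.22), and without saline replicate 4 it was -0.086 (SE 0.17). Acute minus saline was -0.0021 (SE 0.22), and without that array -0.20 (SE 0.17). Its dimmer probe A_44_P383088, tested alone, gave 0.37 for chronic minus saline (SE 0.21, adjusted p = 0.999 in limma) and 0.35 for acute minus saline (SE 0.21, adjusted p = 1.00).

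Adra2c had levels of -2.62, -2.48 and -2.24 in chronic units, -2.91, -2.59 and -2.22 in acute units, and -3.75, -2.55 and -2.20 in saline units. The chronic and acute units lay inside the saline range, whose low end was saline replicate 4, followed by saline replicate 3 at -3.10. The means were -2.47 ± 0.13 in chronic, -2.55 ± 0.25 in acute and -2.75 ± 0.58 in saline units. Chronic minus saline was 0.28 (SE 0.20, 95% interval -0.16 to 0.71), with the smallest unadjusted p of the 21 receptor differences, 0.195, and an adjusted p of 1.00 in limma. Without saline replicate 4 it was 0.074 (SE 0.15), and acute minus saline, 0.20 (SE 0.20) over all units, was -0.0018 (SE 0.15).

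Adrb1, the only beta receptor of the group, had levels of -5.49, -5.09 and -4.69 in chronic units, -5.76, -5.21 and -4.82 in acute units, and -5.47, -5.32 and -4.75 in saline units. The ranges of the 3 groups overlapped. The means were -5.07 ± 0.29 in chronic, -5.22 ± 0.33 in acute and -5.23 ± 0.27 in saline units. Chronic minus saline was 0.17 (SE 0.17), acute minus saline 0.0091 (SE 0.17) and chronic minus acute 0.16 (SE 0.17). In the fit lacking saline replicate 4, acute minus saline was -0.016 (SE 0.18).

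**Figure D2:**
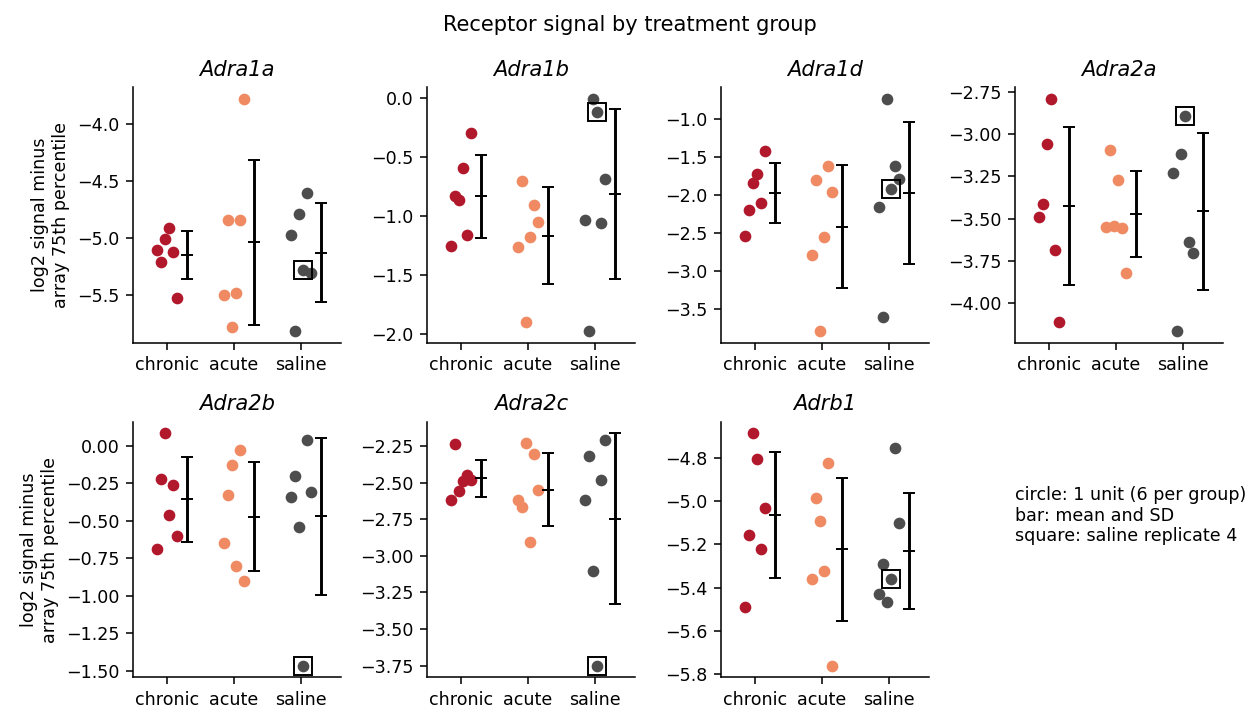
Level (log2 processed signal minus the array's 75th percentile) of each receptor gene in chronic, acute and saline units, 6 per group, with bars for the mean and SD and a square around saline replicate 4. The groups overlap in all 7 panels, and saline replicate 4 is the lowest unit for Adra2b (-1.47) and Adra2c (-3.75).

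Over the 3 comparisons 0 of the 7 genes passed an adjusted p of 0.05 in limma, against 0% of the 20902 genes tested in each comparison. The smallest adjusted p of a receptor gene was 0.960. At an unadjusted p of 0.05 the count was again 0 of 7 in each comparison, where 2.87% of all genes passed for chronic minus saline, 1.59% for acute minus saline and 2.48% for chronic minus acute. In the F test over the 3 groups the smallest unadjusted p was 0.394, that of Adra1b, and 1.71% of all genes had an unadjusted p under 0.05. For no receptor gene did the 6 units of one group lie wholly apart from those of another, which held for 0.0478%, 0.0287% and 0.182% of all genes in the 3 comparisons. The median receptor difference was 0.031 for chronic minus saline, -0.0021 for acute minus saline and 0.11 for chronic minus acute, beside 0.020, -0.0023 and 0.024 over all genes.

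A p that misses the threshold does not show equal levels, and the intervals say how much room is left. The half-widths of the 95% intervals ran from 0.35 on the log2 scale for Adrb1 to 0.85 for Adra1d. The Adrb1 probe was well above background on 19 of 24 arrays, and the intervals take no account of readings near background. With another background correction, normexp, chronic minus saline of Adrb1 was -0.15, against 0.17 in the main fit. For chronic minus saline the interval of Adrb1 spans 0.881-fold to 1.43-fold, that of Adra2a 0.739-fold to 1.41-fold, that of Adra2c 0.898-fold to 1.63-fold and that of Adra1d 0.555-fold to 1.80-fold. The widest reaches 2.46-fold, the upper bound of Adra1d for chronic minus acute. Removal of the saline unit of replicates 2 and 5 gave an unadjusted p under 0.05 for acute minus saline in Adra1b (-0.59, SE 0.24) and Adra1d (-0.78, SE 0.34), with an adjusted p of 0.999 for both in limma. Other units moved the same differences towards 0: acute minus saline was -0.19 in Adra1b without saline replicate 3 and -0.17 in Adra1d without acute replicate 3, and without that acute unit chronic minus acute was 0.19 in Adra1b and 0.17 in Adra1d.

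**Figure D3:**
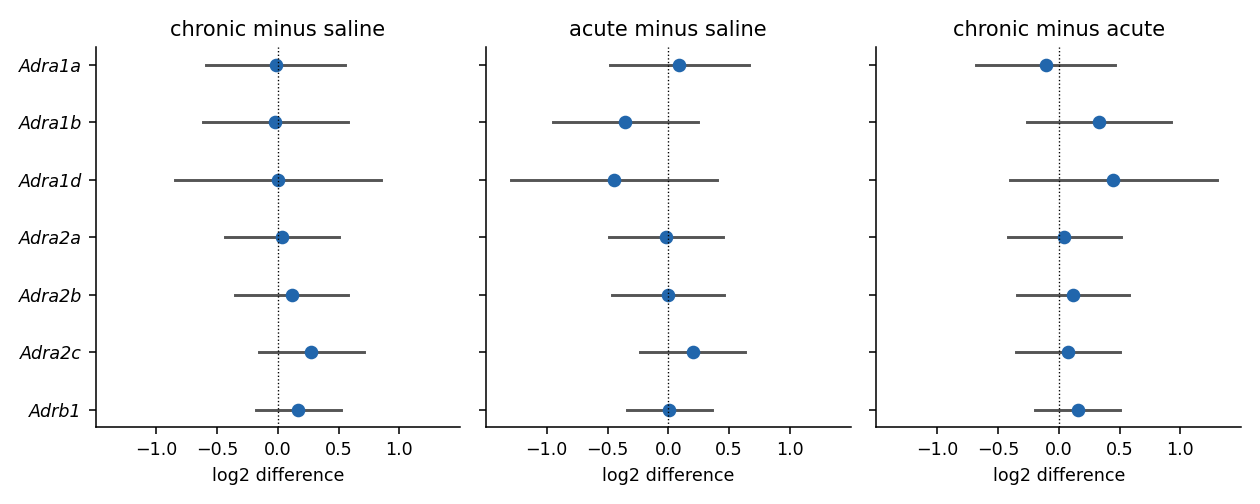
Log2 difference of each receptor gene in the 3 comparisons (points) with its 95% interval from limma (lines). Every interval includes 0, and the widest is that of Adra1d, 0.85 on either side.

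Of the genes that carry the receptors' signals, 0 passed an adjusted p of 0.05 in any comparison, as for all genes tested. The Gq list had 12 of 13 genes measured, with 8 higher for chronic minus saline, 9 for acute minus saline and 8 for chronic minus acute, and median differences of 0.070, 0.046 and 0.030. The Gi/o list had 13 of 13 measured, with 8 higher in each of the 3 comparisons and medians of 0.11, 0.055 and 0.037 in the same order. The Gs list had 15 of 17 measured, with 8, 7 and 5 higher and medians of 0.0018, -0.026 and -0.043. The receptor kinases and arrestins had 7 of 7 measured, with 3, 1 and 5 higher and medians of -0.059, -0.088 and 0.028. The medians over all genes were 0.020, -0.0023 and 0.024 in the same order. No list was tested as a set, and the share of all genes that were higher was not counted. Rgs9 and Adcy5, members of the Gi/o and Gs lists, are also striatal projection neuron markers.

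Over these lists and that of noradrenaline supply, 3 of 165 gene differences (1.82%) had an unadjusted p under 0.05, a share within the 1.59% to 2.87% of all genes in the 3 comparisons. The genes are named by a fixed rule of smallest p and not because they stand apart. Gnai1, a Gi alpha subunit, had -4.56 ± 0.33 in chronic, -5.19 ± 0.61 in acute and -4.99 ± 0.45 in saline units, and chronic minus acute was 0.63 (SE 0.26, adjusted p = 0.960 in limma). Plcb3, a phospholipase C that Gq activates, had -4.69 ± 0.27 in chronic, -4.95 ± 0.32 in acute and -4.60 ± 0.27 in saline units, and acute minus saline was -0.35 (SE 0.16, adjusted p = 1.00 in limma). Maoa, the monoamine oxidase that breaks down noradrenaline, had -3.62 ± 0.16 in chronic, -3.86 ± 0.18 in acute and -3.82 ± 0.24 in saline units, and chronic minus acute was 0.24 (SE 0.11, adjusted p = 0.960 in limma). The others chosen by the same rule, at most 3 per list, included Prkca, Itpr1, Gnai2, Gnaz, Adcy8, Adcy9, Prkacb, Arrb1, Grk5, Grk6 and Pnmt. Of these, Gnai2, a Gi alpha subunit, had 3.39 ± 0.055 in chronic, 3.46 ± 0.082 in acute and 3.54 ± 0.16 in saline units, and Adcy9, an adenylyl cyclase, had 0.34 ± 0.13 in chronic, 0.26 ± 0.24 in acute and 0.11 ± 0.33 in saline units. Chronic minus saline was -0.14 for Gnai2 (SE 0.074) and 0.23 for Adcy9 (SE 0.14), with an adjusted p of 0.999 for both in limma.

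Dbh and Slc6a2, transcripts typical of noradrenergic neurons, were each read by a single probe at or near background. Dbh, the enzyme that makes noradrenaline from dopamine, was well above background on 1 of 24 arrays, and Slc6a2, the noradrenaline transporter that MDPV blocks, on 0 of 24. The cell bodies of noradrenergic neurons lie in the brainstem, outside the dissected tissue, but the cause of the Dbh and Slc6a2 readings was not tested. Th, Maob, Slc22a3 and Pnmt probes were well above background on 24 of 24 arrays. So were the Ddc probe A_43_P14910 and the Slc18a2 probe A_44_P170382. The other Ddc probes reached that mark on 0 to 20 arrays, and the other Slc18a2 probes on 11 and 17. A dim probe alone thus does not show that a transcript was absent. The noradrenaline supply list had 8 of 10 genes measured. Of these, 5 were higher for chronic minus saline, 2 for acute minus saline and 7 for chronic minus acute. The median differences were 0.043, -0.078 and 0.13, beside 0.020, -0.0023 and 0.024 over all genes, and the list was not tested as a set.

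The within-group spread of the receptors was above the median of all genes. The within-group SD over units was 0.75 for Adra1d, higher than that of 97.5% of the genes tested, 0.52 for Adra1b (90.2%), 0.50 for Adra1a (88.7%), 0.41 for Adra2a (79.1%), 0.40 for Adra2b (78.4%), 0.37 for Adra2c (74.8%) and 0.30 for Adrb1 (62.7%). The median over all genes was 0.25, with quartiles of 0.17 and 0.38. In the 17 units other than saline replicate 4 the SD was 0.25 for Adra2c (higher than that of 55.3% of genes) and 0.30 for Adra2b (65.6%), beside a median of 0.23 over all genes, while Adra1d had 0.78 (98.1%). Over the 24 arrays Adra1d spanned 10.3-fold, between saline replicates 2 and 3, which were also the extremes of Adra1b, spanning 5.34-fold. Adra2c spanned 4.12-fold, between saline replicate 4 at -3.75 and saline replicate 2 at -1.71.

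This spread was set against the levels of marker lists for the dissected region and its neighbours, with each group's mean removed. For the 7 receptors and 8 lists 56 relations were computed over 18 units, of which 6 had an adjusted permutation p under 0.05 for Pearson's r. Receptors and lists were chosen with earlier results of these data known, so these p-values are not those of an independent test. The permutations also crossed groups of unlike spread: the cortex list had an SD of 1.10 in saline and 0.36 in acute units. In bulk tissue fewer cells of a type and less RNA per cell cannot be told apart, and the part of dissection in the group values was not tested. Striatal projection neuron markers (17 of 18 genes measured) had list levels of 1.67 to 2.37 in chronic, 1.998 to 2.49 in acute and 1.04 to 2.59 in saline units. Cortex markers (10 of 11) had -2.89 to -1.73 in chronic, -2.98 to -2.01 in acute and -4.09 to -1.48 in saline units. Choroid plexus markers (8 of 12) had -5.84 to -2.55 in chronic, -5.23 to -2.76 in acute and -5.55 to -0.92 in saline units. Their group means were -4.58, -3.93 and -2.75 in the same order, and this difference between groups was not tested.

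With all 18 units, the pair of the 56 with the highest r in size was Adra2c with the striatal projection neuron list. Its r was 0.83 and rho 0.74 (two-sided permutation p = 9e-05 and 0.00061, adjusted p = 0.00504 and 0.0342), and r was 0.84, 0.81 and 0.91 over the 8 arrays of slides 1, 2 and 3. Leaving out the 2 units farthest on that list, saline replicate 4 and chronic replicate 4, gave r = 0.78. Without saline replicate 4 alone, r was 0.61 with an adjusted p of 0.100, so both the call and its place among the 56 rest on that array. Adra2c was also lower where thalamus, septum and pallidum markers (r = -0.77, rho = -0.56, adjusted permutation p = 0.0281 and 0.123) and hypothalamus markers (r = -0.77, rho = -0.50, adjusted permutation p = 0.0281 and 0.157) were higher. Over units, both calls rested on saline replicate 4: r was -0.30 and -0.20 without it. Without the 2 farthest units, saline replicates 4 and 7, r was -0.24 and -0.25. Over the arrays of slides 1, 2 and 3, r was -0.86, -0.87 and -0.67 for the first list. For the hypothalamus list it was -0.80, -0.91 and -0.67. Saline replicate 4 was on slide 2. Those 2 lists, with 8 of 9 and 10 of 12 genes measured, reached -0.46 and -0.95 in saline replicate 4, against highest levels of -1.97 and -3.68 in chronic and -1.78 and -3.62 in acute units.

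Adra2a went the opposite way from Adra2c. Its level fell as the striatal projection neuron list rose, with r = -0.74 and rho = -0.62 (permutation p = 0.00022 and 0.00729, adjusted p = 0.00616 and 0.0583). Within slides r was -0.88, -0.93 and -0.86. The relation did not hinge on saline replicate 4, since r was -0.74 without it (adjusted permutation p = 0.00574) and -0.64 without the 2 units farthest on the list. Pearson's r stayed past the adjusted threshold in all 20 alternatives run for it, between -0.81 and -0.68. These were each of the 18 units left out in turn, 24 independent arrays and quantile normalization.

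The alpha-1 pair also tracked tissue markers. Adra1b fell with the striatal projection neuron list (r = -0.69, rho = -0.66, permutation p = 0.00251 and 0.00357, adjusted p = 0.0281 and 0.0469), and within slides r was -0.96, -0.82 and -0.58. Without the 2 units farthest on that list r was -0.73, and without saline replicate 4 it was -0.66 (adjusted permutation p = 0.0466). Without the saline unit of replicates 2 and 5 it was -0.61 with an adjusted permutation p of 0.0634, past the threshold no longer. Adra1d rose with the cortex list (r = 0.67, rho = 0.64, permutation p = 0.00301 and 0.00498, adjusted p = 0.0281 and 0.0469), and within slides r was 0.93, 0.69 and 0.90. Without the 2 units farthest on that list it was 0.74. This relation also lost its call without the saline unit of replicates 2 and 5 (r = 0.54, adjusted permutation p = 0.111) and without saline replicate 3 (r = 0.59, adjusted permutation p = 0.0807). Without saline replicate 4, which had the lowest cortex level (-4.09) but an Adra1d level of -1.92 in the middle of its group, r was 0.86 for Adra1d and, for the same list, 0.86 for Adra1b (adjusted permutation p = 0.00056 for both), where Adra1b had r = 0.40 with saline replicate 4 included.

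The remaining relations were not past the adjusted threshold for r. By Spearman's rho 3 more were, each with an adjusted permutation p of 0.0469: Adra1a with the cortex list (rho = 0.66, r = 0.51), and Adra2c and Adrb1 with the endothelial and mural list (rho = 0.64 and 0.67, r = 0.45 and 0.54). Within slides 1, 2 and 3 r was 0.78, 0.83 and -0.096 for Adra1a, 0.94, 0.41 and 0.59 for Adra2c, and 0.57, 0.25 and 0.53 for Adrb1. The Adra1a values are those of A_64_P053790, which tracked the other Adra1a probes weakly (r = -0.031 and 0.15). Adra2b, read by A_64_P138008, had r = 0.64 with the striatal list and -0.66 with the hypothalamus list over all units. Neither passed (adjusted permutation p = 0.0524 and 0.0798). Without saline replicate 4 r was 0.24 and 0.038, and no relation of Adra2b had an adjusted p under 0.05. Without acute replicate 7 both the striatal and the hypothalamus relation passed (r = 0.71 and -0.75, adjusted permutation p = 0.0238 each). With the thalamus, septum and pallidum list Adra2b had r = -0.61, and 0.092 without saline replicate 4. Within slides 1, 2 and 3 Adra2b had r of 0.71, 0.62 and 0.68 with the striatal list. With the hypothalamus list these were -0.75, -0.81 and -0.57. With the thalamus, septum and pallidum list they were -0.73, -0.85 and -0.65. Saline replicate 4 was on slide 2. Without saline replicate 4, Adra2c had r = 0.78 with the endothelial and mural list (adjusted permutation p = 0.00574), whose 13 measured genes had levels of -3.19 to -2.72 in chronic, -3.14 to -2.89 in acute and -3.37 to -2.83 in saline units.

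**Figure D4:**
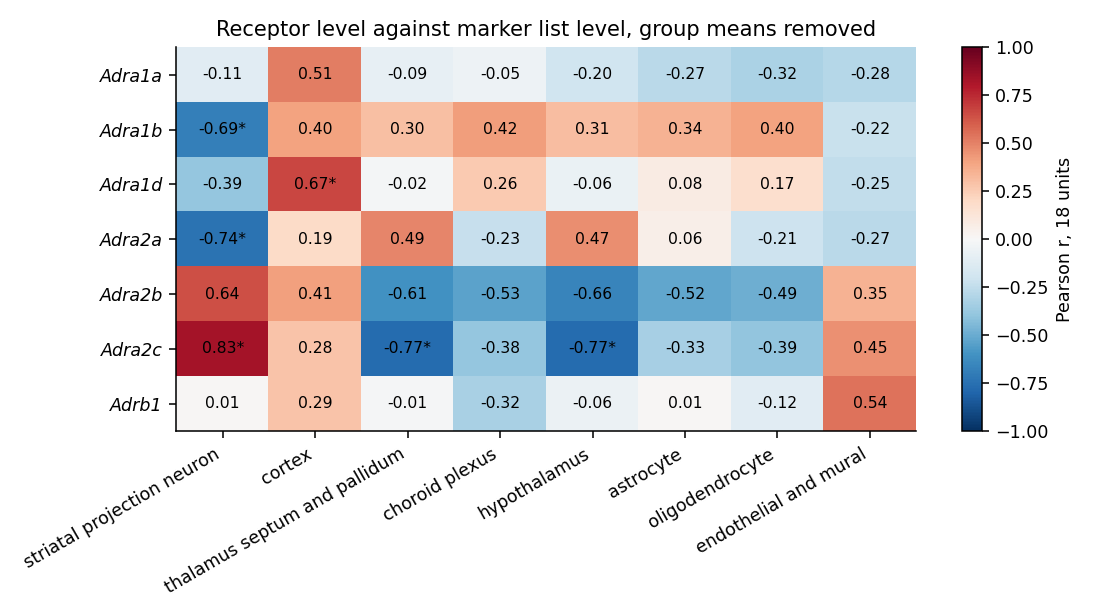
Pearson r over 18 units between the level of each receptor gene (down the page) and the level of each marker list (across), group means removed, with an asterisk where the adjusted permutation p is under 0.05. The striatal column runs between 0.83 for Adra2c and -0.74 for Adra2a.

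**Figure D5:**
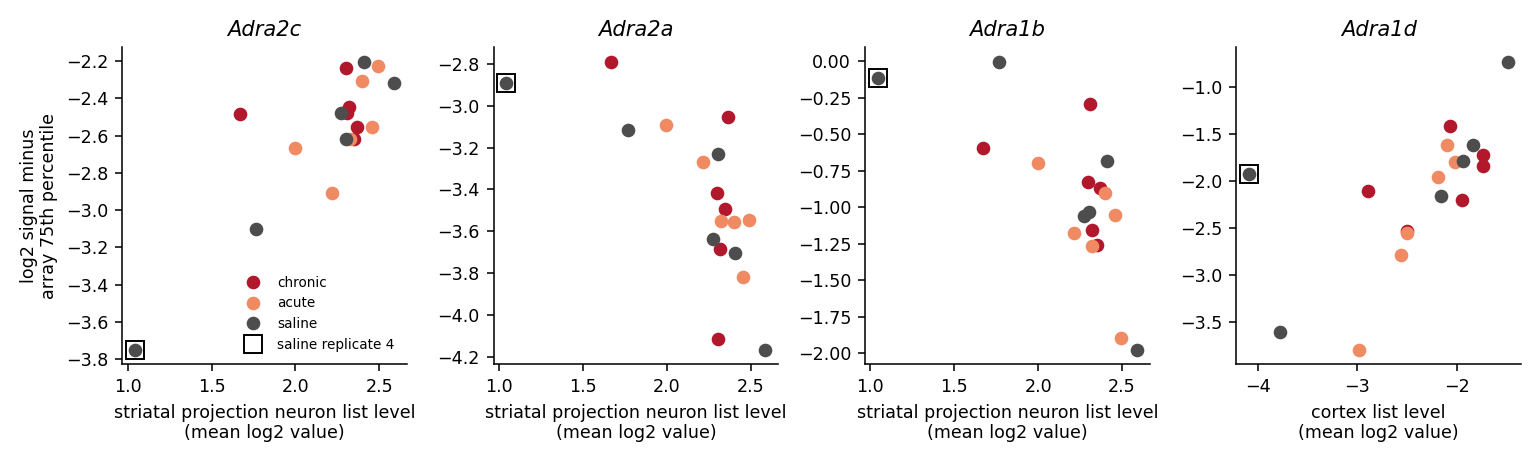
Level of Adra2c, Adra2a and Adra1b against the striatal projection neuron list level, and of Adra1d against the cortex list level (all log2), 1 point per unit, colours for chronic, acute and saline and a square around saline replicate 4. In the first panel that unit lies alone at the lower left, and in the last it lies off the line of the other units.

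Some receptors varied together over the 18 units after removal of group means, described here without a test. Adra1b and Adra1d had r = 0.87, Adra2b and Adra2c 0.78, Adra1a and Adra1d 0.64, Adra2b and Adrb1 0.64, and Adra2a and Adra2c -0.58. Without saline replicate 4 these were 0.94 for Adra1b and Adra1d, 0.54 for Adra2b and Adra2c, 0.64 for Adra1a and Adra1d, 0.79 for Adra2b and Adrb1, and -0.47 for Adra2a and Adra2c. These values share the same arrays and the same scaling. The 3 genes most like Adra2c across the array were Rem2, a small GTPase (r = 0.95), Actn1, an actin cross-linker (0.95), and Penk, the enkephalin precursor of striatal projection neurons and a member of the striatal list (0.95). The same values were 0.91, 0.89 and 0.88 without saline replicate 4. Adra1b was closest to Gfra2, a receptor subunit for neurturin (0.95), Ankrd9 (0.94) and Chrd, the BMP antagonist chordin (0.93). Adra1d was closest to Dtx4 (0.93), Car10 (0.93) and Chrd (0.93), so Chrd appears for both. Adra2a was closest to Cdk14, a cyclin-dependent kinase, Cd200 and Pnck, a calmodulin-dependent kinase, all at 0.87. Adra2b was closest to Fam25a (0.99), Plg, the plasminogen gene (0.95), and Anpep, aminopeptidase N (0.93). Without saline replicate 4 these were 0.97, 0.91 and 0.86. All Adra2b values here are those of A_64_P138008, and its other probe A_44_P383088 varied almost independently of it (r = 0.12). The nearest genes were Vegp2 (0.91), Gba3 (0.91) and Myf5 (0.88) for Adrb1, and Amtn (0.87), Prex1 (0.84) and Slc4a8 (0.80) for Adra1a, both of which have units near background.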

How the data were processed

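Total RNA of 24 samples (Trizol, Cy3 label) was measured on Agilent 1-colour arrays. Per the file headers, the processed signal is an intensity that Feature Extraction (version 10.7 per the submitters' processing notes) corrected for background and spatial trends on each array separately, and arrays were not scaled to each other. The deposited value table holds the authors' log2 values, which rank as the processed signals do and share a range of 2.68 to 18.1, with column medians of 7.23 to 7.24; the method behind it is not given in the sources used here. The build in the headers is rn4.

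Values were log2 processed signals minus the 75th percentile over the array's non-control spots, without control spots and outlier flags. A probe was kept if, in 1 group or more, a share of 0.5 of the arrays had it well above background (26259 probes, 20902 genes), and a gene was read by its kept probe with the highest mean. Groups were compared with limma 3.58.1 in R 4.3.3, in 1 fit over all 3 groups, and p-values were adjusted over all genes (Benjamini-Hochberg, threshold 0.05). Relations with marker lists used 100000 permutations (numpy 2.4.6), adjusted over 56 relations, and within-slide r used 8 arrays. Receptors, marker lists and pathway lists were chosen with earlier results of these data known. Named genes were all receptors, the 3 genes of highest r with each, and at most 3 genes per pathway list by smallest p, of which 1 is not reported here. Alternatives were quantile normalization, the authors' values, normexp (offset 50), no filter or a stricter one, each probe alone, 24 independent arrays, title letter or slide as a block, each slide alone, only the groups compared, robust moderation and each unit left out. Relations with marker lists were rerun only with quantile normalization, 24 independent arrays and each unit left out. The percentile over probes, and spreads and receptor correlations without saline replicate 4, were added after seeing the data. The limma step was tested on simulated data.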

Additional observations from a re-analysis of the deposited data

Results flagged for a closer look

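One receptor value lay far from the others of its group. In the saline group the Adra2b probe A_44_P383088 had its lowest level, -6.33, in replicate 3, and the next lowest saline unit was at -5.69, a gap of 0.643 of the group's range against a limit of 0.625 for 6 units. Dixon's test was applied to 24 groups of units, and chance alone marks about 1 in 20 groups. That spot belongs to the dimmer of the Adra2b probes, which was well above background on 4 of 8 saline arrays.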

How the results depend on the processing

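No receptor gene passed an adjusted p of 0.05 in any of the 3 comparisons or in the F test under any alternative with a test, and the smallest adjusted p was 0.583, 0.972 and 0.532 for chronic minus saline, acute minus saline and chronic minus acute. Of the 21 receptor differences 15 turned sign under at least 1 alternative with a test and 6 did not, and the cause was not tested. Each of these 6 turned sign on at least 1 slide taken alone, where there is no test: on slide 3 acute minus saline was 0.048 for Adra1b and 0.36 for Adra1d, chronic minus acute -0.36 for Adra1b and -0.73 for Adra1d, and chronic minus saline -0.050 for Adra2c, and chronic minus acute of Adra2b was -0.012 and -0.10 on slides 1 and 2. With quantile normalization the turned differences were -0.014 for Adra1d chronic minus saline, 0.0045 for Adra2a and 0.0054 for Adra2b acute minus saline. With normexp they were -0.15 for Adrb1, -0.11 for Adra2a and -0.056 for Adra1d chronic minus saline, -0.12 for Adrb1 and -0.12 for Adra1a acute minus saline, and -0.032 for Adrb1 and -0.0046 for Adra2c chronic minus acute. With the authors' values they were 0.012 for Adra2a and 0.013 for Adra2b acute minus saline. With the percentile over probes, an alternative chosen after seeing the data, they were -0.020 for Adra1d chronic minus saline and 0.013 for Adra2b acute minus saline. The Adra2b probe A_44_P383088 alone gave 0.35 for acute minus saline. With 24 independent arrays they were 0.11 for Adra1b and 0.044 for Adra1a chronic minus saline and 0.059 for Adra2a acute minus saline. With the title letter as a random block (consensus correlation -0.37) they were 0.20 for Adra1b and 0.085 for Adra1a chronic minus saline, 0.11 for Adra2a and -0.0073 for Adra2c acute minus saline, and -0.030 for Adra2a and 0.072 for Adra1a chronic minus acute. With slide as a block they were 0.11 for Adra1b and 0.044 for Adra1a chronic minus saline, 0.12 for Adra2a and -0.012 for Adra1a acute minus saline, and -0.057 for Adra2a and 0.056 for Adra1a chronic minus acute.

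With each unit left out in turn, chronic minus saline ran from -0.16 to 0.087 for Adra1a, -0.25 to 0.14 for Adra1b, -0.33 to 0.25 for Adra1d, -0.11 to 0.17 for Adra2a and -0.086 to 0.21 for Adra2b. Acute minus saline ran from -0.16 to 0.24 for Adra1a, -0.16 to 0.097 for Adra2a, -0.20 to 0.099 for Adra2b, -0.0018 to 0.31 for Adra2c, -0.071 to 0.12 for Adrb1, -0.59 to -0.19 for Adra1b and -0.78 to -0.17 for Adra1d. Chronic minus acute ran from -0.26 to 0.14 for Adra1a, -0.080 to 0.19 for Adra2a, 0.19 to 0.43 for Adra1b and 0.17 to 0.61 for Adra1d. The count of 6 relations past the threshold was 15 with 24 independent arrays and 4 to 10 with a unit left out, the 10 without acute replicate 7. No paired analysis was possible because the replicate numbers follow the order of the samples and tie no samples across groups. The probes of Adra1a and Adrb1 lay near background on some arrays, which limits what their values can show.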
